A study of Mus musculus with 4 samples.

Results

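The genes of the integrin, collagen and laminin families were examined in acute myeloid leukemia (AML) cells driven by the MLL-AF9 fusion. Their rows were the protein-coding genes that matched a rule on gene symbols, with GENCODE M21 names. The rule was set with earlier results of these data known. The rule took alpha and beta integrin chains, collagen alpha chains and laminin chains, and left out Itga2b and Itgam. It gave 75 of 23552 genes, of which 23 were integrins, 41 were collagens and 11 were laminins. Col24a1, Col9a1, Col26a1 and Itgb8 were not analysed here.

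The 4 RNA-seq libraries held c-Kit+ leukemic cells from the bone marrow of moribund C57BL/6 mice. The 2 control libraries (replicates 3 and 4) came from leukemia that overexpressed eGFP alone, and the 2 SUV-OE libraries (replicates 2 and 3) came from leukemia that overexpressed Suv39h1 with eGFP. SUV39H1 is a histone methyltransferase that places a repressive mark on a lysine of histone H3. All libraries therefore shared MLL-AF9, the eGFP reporter, the c-Kit enrichment and RNA-seq batch 2. Per the methods of the study, Suv39h1 was carried in an MSCV-IRES-EGFP plasmid and delivered by virus, and sorted eGFP+ cells were passed into sublethally irradiated mice that were 8-week-old females. Hosts irradiated at a sublethal dose generally keep some marrow cells of their own. The labels do not say that the libraries came from separate mice, so the p-values measure only the spread between these libraries, which may be technical.

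Integrins are receptors made of an alpha and a beta chain that together span the plasma membrane. The alpha chain largely sets the ligand, and the beta chain binds talin and kindlin, which link the receptor to actin. Collagens and laminins are matrix proteins. Fibrillar collagens give tensile strength, network collagens and laminins build basement membranes, and in the marrow most of this matrix is made by stromal, bone and vascular cells. Blood cells mainly use integrins to hold on to marrow stroma, to cross vessel walls and to bind other blood cells.

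The deposited unit was FPKM, a read count scaled to exon length and a library factor. Levels can thus be set side by side between genes and, as far as that factor holds, between libraries. The factors were 16873770 to 19453058, lower than the recovered reads in every library. The reads recovered from the FPKM numbered 20110050 to 23596928 per library, and 3 reads on 1 kb of exons were worth 0.154 to 0.178 FPKM. Suv39h1 had 12.4 and 12.4 FPKM in the control libraries, and 75.3 and 81.2 FPKM in the SUV-OE libraries, as the labels require (log2 fold change 2.56, limma with Benjamini-Hochberg adjustment, adjusted p = 0.00866). Kit had 20.4 and 19.2 FPKM in control, and 28.6 and 25.4 FPKM in SUV-OE (log2 fold change 0.43, limma adjusted p = 0.160). The 12 myeloid progenitor markers summed to between 2711 and 3371 FPKM in every library, and all 12 passed the expression filter.

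Integrins were by far the most abundant of the 3 families. Their summed FPKM was 268.1 and 282.8 in the control libraries, and 299.6 and 287.0 in the SUV-OE libraries. Collagens summed to 36.6 and 34.1 FPKM in control, and 35.1 and 29.5 FPKM in SUV-OE. Laminins summed to 2.42 and 2.20 FPKM in control, and 3.35 and 2.77 FPKM in SUV-OE. A handful of genes made up most of each sum, as the plot of FPKM for the 24 tested genes shows.

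**Figure D1:**
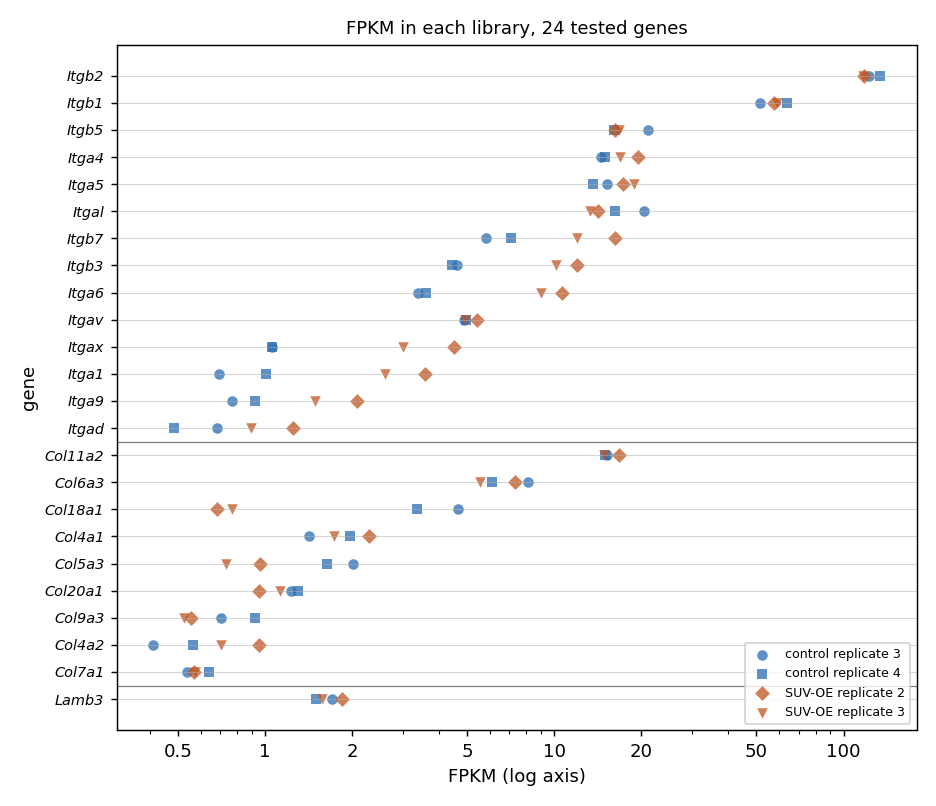
FPKM on a log axis in the 2 control (blue) and 2 SUV-OE (orange) libraries for the 24 genes that averaged 0.5 FPKM or more, with integrins at the top, collagens in the middle and laminins at the bottom. Itga6, Itgb3, Itgb7, Itgax and Itga1 lie to the right in SUV-OE, Col18a1 lies far to the left, and the 4 points of Itgb1, Itgb2, Itgav and Col11a2 lie close together.

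SUV-OE was compared with control by limma on log2(FPKM + 1), gene by gene, wherever the 4 libraries averaged 0.5 FPKM or more. This filter passed 24 members (14 integrins, 9 collagens and 1 laminin) among 13736 genes. A differentially expressed gene (DEG) needed a Benjamini-Hochberg adjusted p below 0.05 and a log2 fold change of 1 or more in size. Itga6 and Itgb3 rose and Col18a1 fell, which made 3 DEGs among the 24 tested members, where 1.22% of all genes tested were DEGs (0.815% up and 0.408% down). Of the 24, 15 had a higher mean in SUV-OE, as did 47.0% of all genes tested, and the median log2 fold change was 0.06 beside -0.02 over all genes tested. Beyond the DEGs, Itgax, Itga1 and Itgb7 brought the members with a limma adjusted p under 0.1 to 6, beside 4.85% of all genes tested. In 10 members both SUV-OE libraries were above both control libraries (25.4% of all genes tested), in 6 both were below (28.4%), and in 8 the groups overlapped.

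The same genes were also compared on recovered reads with limma-voom, which weighs low counts and adds no pseudocount to the FPKM. Of the 47 members that averaged 10 reads or more, 9 were then DEGs, where 4.67% of all genes tested in that way were (3.57% up and 1.1% down). Itga1, Itga2, Itga6, Itgax, Itgb3, Itgb7 and Lamc1 rose, and Col18a1 and Col5a3 fell. Of the 47, 29 had a higher level in SUV-OE (48.7% of all genes), and their median log2 fold change was 0.30, beside -0.01 over all genes. The 24 members tested on FPKM had a median of 0.08 in this fit. Thus Itga6, Itgb3 and Col18a1 passed in both fits, and the other 6 passed on reads only. When any 1 library was left out of the FPKM fit, no gene stayed a DEG, Suv39h1 included, while the log2 fold change of Itga6 lay between 1.15 and 1.38, of Itgb3 between 1.02 and 1.23 and of Col18a1 between -1.71 and -1.33. In bulk samples such as these, fewer cells that express a gene and less RNA per cell cannot be told apart.

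**Figure D2:**
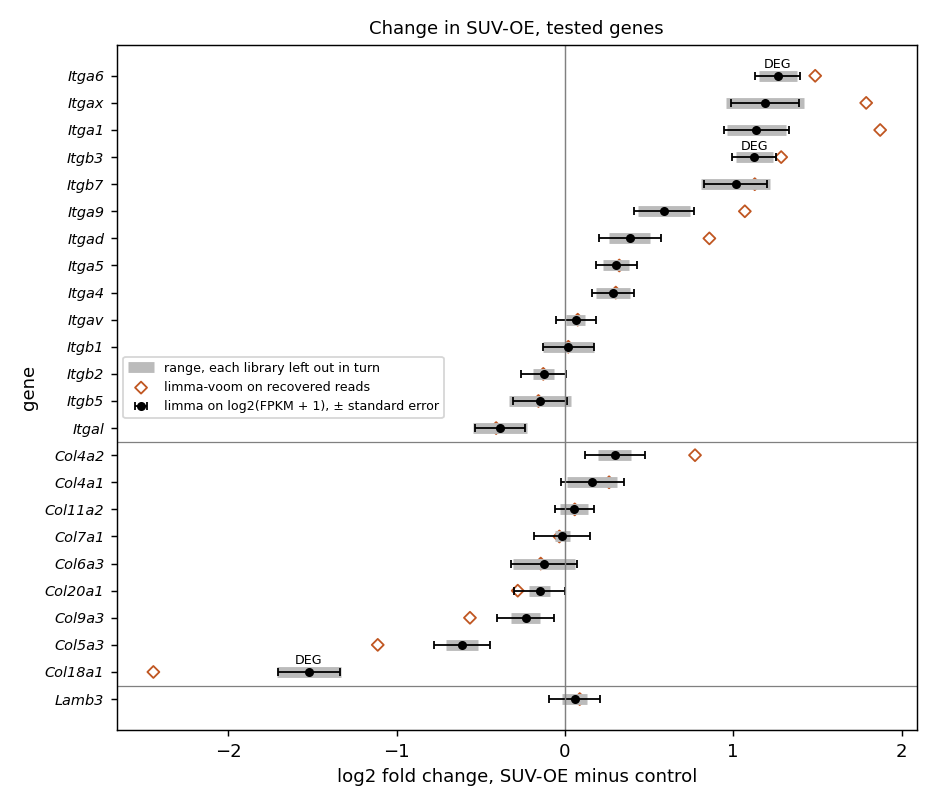
Log2 fold change (SUV-OE minus control) of the 24 tested genes, with black points and standard error bars for limma on log2(FPKM + 1), orange diamonds for limma-voom on recovered reads, and grey bars for the range when each library is left out in turn. Itga6 (1.26), Itgb3 (1.12) and Col18a1 (-1.52) are marked as DEGs, and the diamonds of genes with low FPKM lie farther from 0 than their points.

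Itga6 encodes the alpha chain of laminin receptors and is a common surface marker of stem and progenitor cells. Its FPKM was 3.37 and 3.61 in the control libraries, and 10.7 and 8.98 in the SUV-OE libraries, so the groups were well apart (ratio of means 2.81). This was a log2 fold change of 1.26 with a standard error of 0.13 (limma adjusted p = 0.0404). It rests on 592 and 550 reads in control, and 1706 and 1441 reads in SUV-OE. The other laminin-binding alpha chains, Itga3 and Itga7, had mean levels of 0.0653 and 0.0379 FPKM and at most 9 reads in any library, so they were tested in neither fit. Itga6 also pairs with Itgb4, the hemidesmosome chain, which stayed between 0.152 and 0.249 FPKM with overlapping groups.

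Among collagen-binding alpha chains, which pair with Itgb1, Itga1, Itga2 and Itga10 lay higher in both SUV-OE libraries than in both control libraries, as did 25.4% of all genes tested and 45.0% of the genes under the filter that averaged 10 reads or more, where Itga2 and Itga10 fall. Itga1, the alpha chain of a collagen IV receptor, had 0.696 and 1.01 FPKM in control, and 3.59 and 2.59 FPKM in SUV-OE. In the FPKM fit this came to 1.14 on the log2 scale (standard error 0.19, limma adjusted p = 0.0795), and the fit on reads gave 1.87 (limma-voom adjusted p = 0.0105). Itga2, the alpha chain of the collagen receptor of platelets, was below the expression filter with 0.0244 and 0.0422 FPKM in control, and 0.334 and 0.280 FPKM in SUV-OE. It had 4 and 6 reads against 50 and 42 reads (log2 fold change on reads 3.14, standard error 0.50, limma-voom adjusted p = 0.0185), a rise from a level near the limit of detection. Itga1 shares 685 exon bases with another gene, so part of its reads could belong there. Itga10 had 0.258 and 0.377 FPKM in control, and 0.511 and 0.738 FPKM in SUV-OE (limma-voom adjusted p = 0.173). Itga10 shares 1739 of its 5186 exon bases with another gene, so its level is uncertain. Itga11 had 2 or 3 reads in every library.

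Itga1 and Itga2 are neighbours on chromosome 13, 20995 bases apart and on the same strand (mm10, 114953096 to 115101964 for Itga1 and 114833081 to 114932100 for Itga2). Pelo lies inside the Itga1 gene, and it did not follow Itga1, with 16.1 and 13.7 FPKM in control, and 16.5 and 14.7 FPKM in SUV-OE (log2 fold change 0.06, limma adjusted p = 0.820). The 250 bases before the start of each neighbour are printed because this is a pair that rose side by side. They are from RefSeq (GRCm38.p6, minus strand), at chr13:115101965-115102214 and chr13:114932101-114932350, with 10 and 12 CpG. Each window was searched on both strands for 5 motifs, none of which contains another. AGATAA is the site that transcription factors of the GATA family prefer. GAGGAAG is a core site of PU.1, a regulator of myeloid and lymphoid cells. TGTGGT is the core site of RUNX transcription factors. GGGCGG is the GC box to which Sp factors bind. TATAAA is the core of the TATA box, found near the start of some genes. None of these motifs is in either window, so neither has capitals, and this says nothing about those factors elsewhere at the genes.
Itga1: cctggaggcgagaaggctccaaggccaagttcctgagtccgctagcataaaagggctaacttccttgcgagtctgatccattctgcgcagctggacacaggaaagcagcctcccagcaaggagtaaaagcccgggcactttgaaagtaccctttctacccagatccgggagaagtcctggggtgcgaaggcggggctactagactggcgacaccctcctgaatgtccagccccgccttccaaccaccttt
Itga2: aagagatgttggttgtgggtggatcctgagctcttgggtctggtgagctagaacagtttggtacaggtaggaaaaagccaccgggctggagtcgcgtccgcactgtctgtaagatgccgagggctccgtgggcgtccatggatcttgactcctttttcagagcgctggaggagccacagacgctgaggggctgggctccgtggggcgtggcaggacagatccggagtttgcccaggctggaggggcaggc

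Over the 58 RefSeq windows used for 53 members, the same search found GGGCGG in 51.7%, beside 32.7% of all 32851 promoter windows. Member windows on chromosome 18, where Lama3 alone lies, were not used, while all promoter windows included that chromosome. GAGGAAG was in 15.5% beside 10.6%, TGTGGT in 8.62% beside 14.0%, TATAAA in 8.62% beside 12.4%, and AGATAA in 5.17% beside 9.99%. The members' windows held a median of 10 CpG and 59.0% GC, and all windows held a median of 6 CpG and 52.4% GC. Itga6, Itgb3 and Lamc1 were among the 22 members without a window in this search.

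Among leukocyte alpha chains, which pair with Itgb2 or, for Itgae, with Itgb7, the differences had no common direction. Itgax, the CD11c chain of dendritic and other myeloid cells, had 1.06 and 1.06 FPKM in control, and 4.52 and 2.998 FPKM in SUV-OE. Both SUV-OE libraries were thus far above control, with SUV-OE replicate 2 the higher (log2 fold change 1.19, standard error 0.20, limma adjusted p = 0.0782, and 1.79 on reads with limma-voom adjusted p = 0.0185). Itgal, the alpha chain of LFA-1, which binds ICAM proteins, was the only tested alpha chain with both SUV-OE libraries below control. It had 20.5 and 16.2 FPKM in control, and 14.2 and 13.3 FPKM in SUV-OE (log2 fold change -0.38, limma adjusted p = 0.243). Itgad had 0.684 and 0.486 FPKM in control, and 1.25 and 0.898 FPKM in SUV-OE (log2 fold change 0.39, limma adjusted p = 0.318), and it shares 890 exon bases with other genes. Itgae was under the filter, with 7 and 15 reads in control, and 28 and 13 reads in SUV-OE.

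Itgax lies between Itgam and Itgad on chromosome 7, 11.1 kb and 3.72 kb away. Itgam, which encodes the CD11b chain and was not a member, had 12.8 and 21.8 FPKM in control, and 26.5 and 26.6 FPKM in SUV-OE (log2 fold change 0.64, limma adjusted p = 0.258). All 3 genes of the cluster therefore lay above control in both SUV-OE libraries, as did 25.4% of all genes tested. None of the 3 was a DEG in the FPKM fit, and Itgax had the largest difference. Its upstream window is shown for this reason (RefSeq, GRCm38.p6, plus strand, chr7:128129300-128129549). It has 5 CpG, and the capitals mark AGATAA, the only match to the 5 motifs, 217 bases before the start.
Itgax: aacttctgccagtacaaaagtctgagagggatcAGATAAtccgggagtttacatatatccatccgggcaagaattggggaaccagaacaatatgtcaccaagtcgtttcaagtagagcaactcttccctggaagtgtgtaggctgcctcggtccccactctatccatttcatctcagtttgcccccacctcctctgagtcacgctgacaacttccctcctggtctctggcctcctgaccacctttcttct

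The alpha chains that bind fibronectin, vitronectin or VCAM-1 did not pass the test in either fit. Itga4 and Itga5 were, with Itgal, the most abundant alpha chains among the members. Itga5, the fibronectin receptor chain, had 15.3 and 13.6 FPKM in control, and 17.2 and 18.9 FPKM in SUV-OE (log2 fold change 0.30, limma adjusted p = 0.255). Itga4, which binds VCAM-1 on marrow stroma, had 14.5 and 14.95 FPKM in control, and 19.6 and 16.8 FPKM in SUV-OE (log2 fold change 0.29, limma adjusted p = 0.283). It shares 1124 of 13978 exon bases with Cerkl on the other strand, and the library kit keeps no strand. In Itga4 and Itga5 the groups did not overlap, with SUV-OE the higher. Itgav, the vitronectin receptor chain, lay between 4.88 and 5.43 FPKM with overlapping groups (log2 fold change 0.06, limma adjusted p = 0.793). Itga9, a receptor chain for tenascin, had 0.769 and 0.925 FPKM in control, and 2.09 and 1.49 FPKM in SUV-OE (log2 fold change 0.59, limma adjusted p = 0.179, and 1.07 on reads with limma-voom adjusted p = 0.0590).

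Of the 7 beta chains, 5 were tested, and only Itgb3 rose in the FPKM fit (0.815% of all genes tested rose). It partners Itgav in the vitronectin receptor and Itga2b in the fibrinogen receptor of megakaryocytes and platelets. Its FPKM was 4.62 and 4.44 in control against 12.0 and 10.2 in SUV-OE (ratio of means 2.45). Every SUV-OE value was thus more than double every control value (log2 fold change 1.12, standard error 0.13, limma adjusted p = 0.0434). Itgb7, a homing receptor chain of lymphocytes and mast cells, had 5.79 and 7.09 FPKM in control, and 16.3 and 12.0 FPKM in SUV-OE. Its log2 fold change of 1.01 did not pass in the FPKM fit (standard error 0.19, limma adjusted p = 0.0892), and it rose on reads (1.13, limma-voom adjusted p = 0.0296).

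Itgb2 and Itgb1, the 2 most abundant members, differed little between groups. Itgb2, the shared chain of leukocyte integrins, had 122.7 and 133.8 FPKM in control, and 117.5 and 117.0 FPKM in SUV-OE (log2 fold change -0.13, limma adjusted p = 0.636). The sign of this difference turned to 0.090 after quantile normalization. Itgb1, the most widely shared beta chain, had 51.5 and 63.7 FPKM in control, and 57.6 and 58.7 FPKM in SUV-OE, so its SUV-OE values lay between the control values (log2 fold change 0.02, limma adjusted p = 0.952). Itgb5 had 21.02 and 16.1 FPKM in control, and 16.2 and 16.8 FPKM in SUV-OE, also with overlap (log2 fold change -0.15, and 0.037 without control replicate 3). Itgb6, an epithelial chain, had 0 reads in both control libraries, and 2 and 3 reads in SUV-OE.

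The upstream window of Itgb7 is given as the beta chain that rose on reads and has a RefSeq window (GRCm38.p6, minus strand, chr15:102231936-102232185). It has 5 CpG and none of the 5 motifs, so it has no capitals.
Itgb7: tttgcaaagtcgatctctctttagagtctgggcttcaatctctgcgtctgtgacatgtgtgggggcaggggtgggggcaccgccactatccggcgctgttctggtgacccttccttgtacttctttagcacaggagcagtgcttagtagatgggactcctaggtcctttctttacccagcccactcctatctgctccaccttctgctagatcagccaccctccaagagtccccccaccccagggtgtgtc

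Since integrins work as pairs, the FPKM of each beta chain was set beside the sum of its known alpha partners, with Itga2b and Itgam included in the sums. An alpha chain with several beta partners was counted in full for each, such as Itga4 for Itgb1 and Itgb7 and Itgav for Itgb1 and Itgb3. For Itgb1, with 12 alpha partners, the ratio of beta to summed alpha was 1.29 and 1.61 in control against 0.966 and 1.07 in SUV-OE. The partners summed to 39.9 and 39.6 FPKM in control, and 59.6 and 54.8 FPKM in SUV-OE, so here the alpha side was higher while the beta chain was level. For Itgb2 the ratio was 3.51 and 3.38 in control against 2.53 and 2.67 in SUV-OE. For Itgb7 the ratio went the other way, with 0.398 and 0.468 in control against 0.818 and 0.706 in SUV-OE, as its main partner Itga4 differed little. For Itgb3 the ratio was 0.566 and 0.497 in control against 0.754 and 0.757 in SUV-OE. Its highest partner was Itgav in both control libraries and Itga2b in both SUV-OE libraries. These ratios are descriptions of mRNA levels, and surface pairs were not measured.

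**Figure D3:**
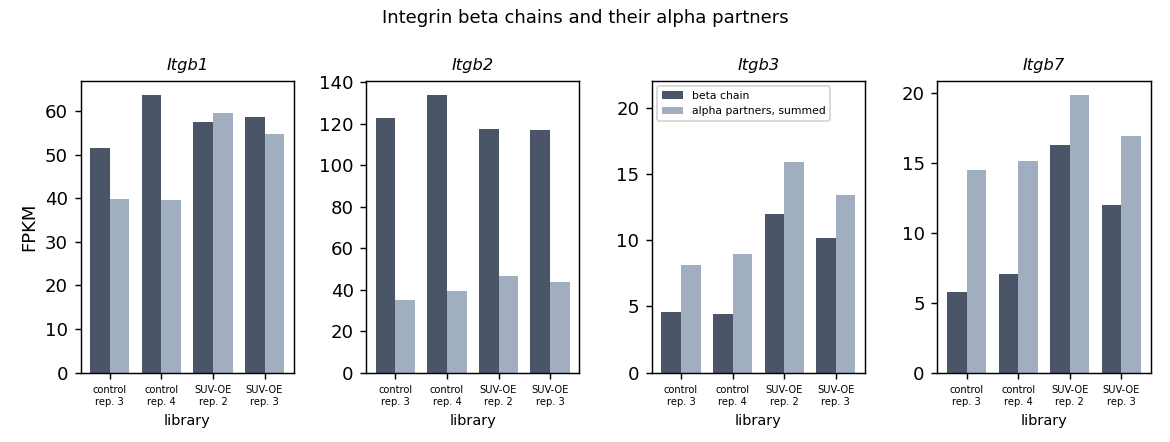
FPKM of 4 integrin beta chains (dark bars) and the summed FPKM of their alpha partners (light bars) in each library, with axes that start at 0. Itgb1 and its partners come level in SUV-OE as the partners go from about 40 FPKM to 59.6 and 54.8 FPKM, and Itgb3 and Itgb7 are taller in both SUV-OE libraries.

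Itga2b, which pairs with Itgb3 alone, is a marker of megakaryocytes. It had 3.28 and 3.99 FPKM in control, and 10.5 and 8.51 FPKM in SUV-OE (log2 fold change 1.18, limma adjusted p = 0.0560, and 1.39 on reads with limma-voom adjusted p = 0.0109). Markers of several other cell types were also higher in both SUV-OE libraries, as were 25.4% of all genes tested and 26.0% of those under the filter. The 10 megakaryocyte and platelet markers, Itga2b among them, summed to 8.22 and 15.4 FPKM in control, and 27.4 and 31.9 FPKM in SUV-OE, and 7 were higher in both SUV-OE libraries. Gp9, a defining platelet gene, was not one of them, with 1.63 and 2.83 FPKM in control, and 1.54 and 2.24 FPKM in SUV-OE. The 10 neutrophil markers summed to 773 and 2411 FPKM in control, and 6714 and 8161 FPKM in SUV-OE, with all 10 higher in both SUV-OE libraries. The 13 B-lymphoid markers summed to 47.5 and 54.5 FPKM in control, and 112 and 209 FPKM in SUV-OE, with 11 higher. The 12 erythroid markers summed to 37.9 and 167 FPKM in control, and 136 and 110 FPKM in SUV-OE, with 6 higher in both SUV-OE libraries. Globin genes of control replicate 4, such as Hbb-bs with 63.25 FPKM, made up much of its sum, and Car2 (log2 fold change 2.66, limma adjusted p = 0.0214) and Ermap (1.45, limma adjusted p = 0.0434) rose. The 9 mast cell, basophil and eosinophil markers with a value summed to 107 and 163 FPKM in control, and 261 and 210 FPKM in SUV-OE, with 6 higher. No marker of these lists was at 0 in all libraries. The 12 monocyte and macrophage markers summed to 456 and 736 FPKM in control, and 437 and 482 FPKM in SUV-OE, yet 8 were higher in both SUV-OE libraries, and their median log2 fold change was 0.53. The 12 T and NK markers summed to 75.7 and 115 FPKM in control, and 78.5 and 85.3 FPKM in SUV-OE, with 5 higher. The part of these markers in the integrin differences was not tested.

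Of the 9 collagens that passed the filter, SUV-OE was higher for 3 and lower for 6, beside 47.0% of all genes tested that were higher, and their log2 fold changes had a median of -0.12. On reads, 12 collagens were higher and 12 were lower, with a median of 0.02. Only Col18a1 fell in the FPKM fit. It encodes a basement membrane proteoglycan whose end fragment is endostatin. Its FPKM was 4.65 and 3.34 in control against 0.682 and 0.769 in SUV-OE, and its reads were 635 and 396 against 85 and 96. The groups were several-fold apart (ratio of means 0.182). This was a log2 fold change of -1.52 with a standard error of 0.18 (limma adjusted p = 0.0434), and of -2.45 on reads (limma-voom adjusted p = 0.00552). It had the largest fold change of the 24 tested members in size, and no overlapping gene shares its exons.

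Col18a1 has a pair of RefSeq start sites, and the 250 bases before each are shown, as FPKM of the whole gene cannot say which start was used (GRCm38.p6, minus strand). The outer window, chr10:77166531-77166780, has 12 CpG, and the inner window, chr10:77113706-77113955, has 3. Capitals mark CCGCCC, the reverse complement of GGGCGG, in the outer window (starting 61, 43 and 33 bases before the start). In the inner window they mark ACCACA, the reverse complement of TGTGGT (starting 12 bases before the start).
Col18a1, outer start: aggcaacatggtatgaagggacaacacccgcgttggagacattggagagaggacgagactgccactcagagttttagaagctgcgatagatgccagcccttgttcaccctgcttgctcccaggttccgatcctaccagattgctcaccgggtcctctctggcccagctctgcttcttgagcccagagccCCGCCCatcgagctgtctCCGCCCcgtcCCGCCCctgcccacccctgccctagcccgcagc
Col18a1, inner start: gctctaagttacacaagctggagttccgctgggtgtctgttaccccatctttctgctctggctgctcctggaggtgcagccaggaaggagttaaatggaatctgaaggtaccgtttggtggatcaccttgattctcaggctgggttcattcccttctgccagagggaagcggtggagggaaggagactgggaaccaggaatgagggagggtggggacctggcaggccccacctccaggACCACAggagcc

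The members nearest to Col18a1 on chromosome 10 (mm10, 77052178 to 77166548) did not pass the test. Col6a1, 326.0 kb away, had overlapping groups between 0.153 and 0.335 FPKM. Itgb2, 363.7 kb away on the other side, had a log2 fold change of -0.13. Col15a1, the closest relative of Col18a1, was below the filter, with 13 and 16 reads in control, and 17 and 8 reads in SUV-OE. It did not pass the test on reads (log2 fold change -0.25, limma-voom adjusted p = 0.808).

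Among fibrillar collagens, Col5a3 was the other collagen to fall on reads. This minor collagen V chain had 2.01 and 1.64 FPKM in control, and 0.960 and 0.735 FPKM in SUV-OE (log2 fold change -0.61, limma adjusted p = 0.155, and -1.11 on reads with limma-voom adjusted p = 0.0462). Its partner chains went different ways with values under the filter. Col5a1 had 0.145 and 0.251 FPKM in control, and 0.624 and 0.457 FPKM in SUV-OE (limma-voom adjusted p = 0.0703). Col5a2 had 0.220 and 0.260 FPKM in control, and 0.135 and 0.123 FPKM in SUV-OE (limma-voom adjusted p = 0.196). The 3 collagen V genes therefore had no common direction. Col11a2, a cartilage collagen chain, was the most abundant collagen by FPKM, with 15.2 and 15.01 FPKM in control, and 16.7 and 14.8 FPKM in SUV-OE (log2 fold change 0.06, limma adjusted p = 0.819). Its reads were whole at another exon length than that of GENCODE M21, and the gene total does not say which exons they came from. Its partner chains Col11a1 and Col2a1 had at most 4 and 12 reads in any library. The bone and stroma collagens Col1a1 and Col1a2 had mean levels of 0.367 and 0.197 FPKM with overlapping groups (limma-voom log2 fold changes of -0.02 and 0.33), and Col3a1 had 12 to 19 reads per library.

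Basement membrane collagen IV was represented by Col4a1 and Col4a2, which lie head to head on chromosome 8 and share 22 exon bases. Col4a1 had 1.42 and 1.97 FPKM in control, and 2.29 and 1.74 FPKM in SUV-OE (log2 fold change 0.16, limma adjusted p = 0.659). Col4a2 had 0.412 and 0.564 FPKM in control, and 0.954 and 0.705 FPKM in SUV-OE (log2 fold change 0.30, limma adjusted p = 0.412). SUV-OE replicate 2 had the highest value of both genes and control replicate 3 the lowest, and the groups overlapped for Col4a1 only. The other 4 collagen IV genes had at most 9 reads in any library.

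Col6a3, a chain of microfibrillar collagen VI, had 8.13 and 6.08 FPKM in control, and 7.34 and 5.52 FPKM in SUV-OE (log2 fold change -0.12, limma adjusted p = 0.755). Its sign turned to 0.059 without control replicate 3 and to 0.054 without SUV-OE replicate 3. Col6a1 and Col6a2, the chains that assemble with Col6a3, had means of only 0.251 and 0.0790 FPKM, so the 3 chains of the trimer were far from equal in mRNA. Col9a3 had 0.707 and 0.923 FPKM in control, and 0.556 and 0.526 FPKM in SUV-OE (log2 fold change -0.23, limma adjusted p = 0.488), and it overlaps Tcfl5 on the other strand. Col20a1, which like Col9a3 is of the class that coats fibrils, had 1.23 and 1.30 FPKM in control, and 0.954 and 1.13 FPKM in SUV-OE (log2 fold change -0.15, limma adjusted p = 0.618). Col7a1, the anchoring fibril collagen, stayed between 0.540 and 0.640 FPKM in all libraries (log2 fold change -0.02, limma adjusted p = 0.968).

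Laminins were scarce. Lamb3, a chain of the laminin of epithelia, was the only tested one and had 1.71 and 1.497 FPKM in control, and 1.85 and 1.57 FPKM in SUV-OE (log2 fold change 0.06, limma adjusted p = 0.854). Its small difference turned to -0.070 after quantile normalization, to -0.015 without SUV-OE replicate 2 and to -0.0012 without control replicate 4. Lamc1, the gamma chain of most laminins, was the untested member nearest to the filter, with a mean of 0.480 FPKM. It had 0.168 and 0.229 FPKM in control, and 0.729 and 0.796 FPKM in SUV-OE, and it rose on reads, with 27 and 32 reads against 107 and 117 (log2 fold change 1.95, standard error 0.31, limma-voom adjusted p = 0.0191). Lamb1, a usual partner of Lamc1, had 7 and 9 reads in control, and 46 and 23 reads in SUV-OE (log2 fold change 2.01, limma-voom adjusted p = 0.0885). Of the 5 alpha chains, without which no laminin trimer forms, Lama5 had the most reads, with 61 and 45 in control against 46 and 30 in SUV-OE.

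In all, 51 members were under the filter of 0.5 FPKM. Both SUV-OE libraries were above both control libraries in 17 of them (26.0% of all genes under the filter) and below in 7 (12.8%), and the groups overlapped in 27. Of the 23 that averaged 10 reads or more, 10 were above (45.0% of such genes), 3 were below (14.9%) and 10 overlapped. In these 23 only Itga2 and Lamc1 rose on reads, where 7.17% of such genes did. The 10 that lay above included Itga2, Itga10, Lamc1 and Lamb1. They also included Col5a1, Col6a2, Col8a1, Col12a1, Col14a1 and Col27a1, which were named after their values were seen. Col27a1, with 7 and 9 reads in control, and 24 and 78 reads in SUV-OE, and Col14a1, with 3 and 9 against 35 and 25 reads, showed how unequal low counts were within a group. The other 28 members had a mean under 10 reads and were tested in neither fit.

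**Figure D4:**
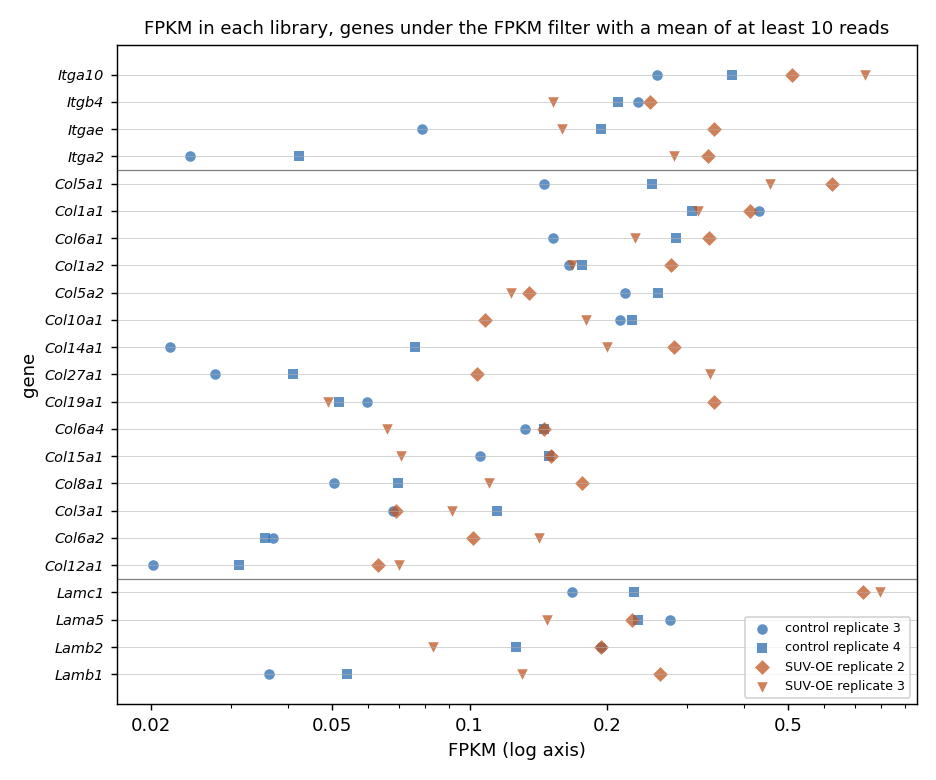
FPKM on a log axis in the 4 libraries for the 23 genes under the FPKM filter with a mean of at least 10 reads, with integrins, collagens and laminins from top to bottom. Itga2 and Lamc1 have both SUV-OE libraries (orange) well above both control libraries (blue), whereas 10 genes overlap, such as Col1a1 and Col3a1.

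Markers of the cells that make marrow matrix were measured in the same libraries. Of 16 stromal and osteoblast markers, 11 stayed under 0.5 FPKM in every library, and the list summed to 21.8 and 20.4 FPKM in control, and 25.0 and 21.4 FPKM in SUV-OE. Most of that sum came from Pdgfrb (5.57 to 8.56 FPKM), Runx2 (5.07 to 9.40 FPKM), Tagln (2.42 to 3.60 FPKM) and Acta2 (2.22 to 2.97 FPKM), while Dcn, a defining fibroblast gene, was at 0 in control replicate 3 and at most 0.135 FPKM elsewhere. Of the 16, 5 were higher in both SUV-OE libraries and 1 was lower in both. Of all genes, 25.4% of those tested and 26.0% of those under the filter were higher in both. Cxcl12, among the 5, had 0.264 and 0.348 FPKM in control, and 0.724 and 0.619 FPKM in SUV-OE. The 12 endothelial markers summed to 18.8 and 26.6 FPKM in control, and 77.6 and 68.8 FPKM in SUV-OE, and 9 were higher in both SUV-OE libraries (25.4% of all genes tested, and 45.0% of those under the filter that averaged 10 reads or more). Most of that sum was Pecam1, which blood cells also express and which was a DEG (16.7 and 23.3 FPKM against 70.3 and 64.1 FPKM, limma adjusted p = 0.0405). Cdh5, which defines endothelium, had 0.232 and 0.491 FPKM in control, and 0.848 and 0.381 FPKM in SUV-OE, with overlap. Kdr, the main VEGF receptor of endothelium, had 5 and 10 reads in control, and 29 and 23 reads in SUV-OE, and Esam had 5 and 7 against 23 and 29 reads. Tek, Emcn, Plvap and Robo4 also lay above control in both SUV-OE libraries. The part of such cells in the laminin and collagen values was not tested.

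The genes around these receptors and matrix proteins were taken from lists of known function. The counts of tested genes that were higher, in each list, stand beside 47.0% of all genes tested. Among 32 other matrix glycoproteins and proteoglycans, 11 passed the filter, 9 of them higher in SUV-OE, and 3 rose in the FPKM fit (Emilin1, Ecm1 and Mfge8), beside 0.815% of all genes. Emilin1, an elastic fibre glycoprotein, had 13.6 and 16.1 FPKM in control, and 44.1 and 45.3 FPKM in SUV-OE (log2 fold change 1.53, limma adjusted p = 0.0260). Ecm1 had 10.2 and 10.3 FPKM in control, and 23.9 and 24.7 FPKM in SUV-OE (log2 fold change 1.17, limma adjusted p = 0.0280). Mfge8, a ligand of Itgb3 and Itgb5 integrins that bridges dying cells to phagocytes, had 2.02 and 1.82 FPKM in control, and 5.17 and 4.82 FPKM in SUV-OE (log2 fold change 1.04, limma adjusted p = 0.0477). The groups did not overlap in any of these 3 genes. On reads 6 of 23 rose, with Fn1, Thbs1 and Vwf added, beside 3.57% of all genes. Fn1, fibronectin itself, had 0.180 and 0.431 FPKM in control, and 2.07 and 1.19 FPKM in SUV-OE (limma-voom adjusted p = 0.0280).

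Of 28 enzymes and chaperones that modify collagen, 11 were tested, 7 were higher and Plod3 rose, beside 0.815% of all genes. Plod3, a lysyl hydroxylase, had 26.5 and 28.2 FPKM in control, and 55.6 and 63.2 FPKM in SUV-OE (log2 fold change 1.09, limma adjusted p = 0.0434). On reads P4ha1 and Bmp1 rose as well, which made 3 of 19, beside 3.57% of all genes. P4ha1, a catalytic chain of prolyl hydroxylase, had 7.31 and 8.72 FPKM in control, and 14.6 and 23.0 FPKM in SUV-OE (limma-voom adjusted p = 0.0347). The groups overlapped in neither gene.

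Integrins act through proteins that bind their tails inside the cell. Of 20 tested tail partners and adhesion signaling genes, 13 were higher and 7 lower, none was a DEG in the FPKM fit, and the median log2 fold change was 0.07. Tln1, which encodes talin, had 139.3 and 93.5 FPKM in control, and 130.2 and 119.2 FPKM in SUV-OE, and Fermt3, the kindlin of blood cells, had 251.9 and 169.8 FPKM, and 186.4 and 173.8 FPKM. Both overlapped between groups. Fyn, a kinase of the Src family, was the only 1 of 23 to rise on reads (3.57% of all genes), with 48 and 24 against 120 and 131 reads (limma-voom adjusted p = 0.0262). Among cell surface ligands none was a DEG in either fit, with 5 tested on FPKM and 7 on reads, and Vcam1, the ligand of Itga4, had 48.2 and 52.2 FPKM in control, and 31.0 and 33.6 FPKM in SUV-OE (log2 fold change -0.62, limma adjusted p = 0.0952, and -0.64 on reads with limma-voom adjusted p = 0.0436). Of 10 tested other matrix receptors 5 were higher and 5 lower with no DEG, and of 14 on reads Sdc1 and Sdc3, which are syndecans, rose and Lair1, an inhibitory collagen receptor, fell, beside 3.57% and 1.1% of all genes. Lair1 had 5.68 and 7.04 FPKM in control, and 2.82 and 2.89 FPKM in SUV-OE (limma-voom adjusted p = 0.0157). Of 5 tested metalloproteinases and inhibitors 4 were higher, none was a DEG in the FPKM fit, and Mmp9 and Mmp25 rose among 9 on reads, beside 3.57% of all genes. Mmp9, a gelatinase that neutrophils store, had 2.43 and 5.21 FPKM in control, and 12.9 and 11.1 FPKM in SUV-OE (limma-voom adjusted p = 0.0252).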

How the data were processed

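RNA-seq was measured in c-Kit+ AML cells, with 2 control and 2 SUV-OE libraries grouped by GEO's genotype labels. Per the labels and the paper's methods, the authors made TruSeq RNA v2 libraries, sequenced paired ends on a HiSeq, used CASAVA 1.8 and aligned with TopHat2 to mm10. The authors deposited 1 FPKM per gene and library; the paper names Cufflinks for it, and the annotation is not given in the sources used here. At GENCODE M21 exon lengths, all 4 values of 78.5% of genes were whole reads within a tolerance of 0.01, beside 0.393% at a random gene's length. Another 4933 genes were whole at another length (13 members), which was used for their reads, and 114 genes had no M21 match.

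Genes that averaged 0.5 FPKM or more were tested with limma 3.58.1 in R 4.3.3 on log2(FPKM + 1), with an intensity trend and Benjamini-Hochberg adjustment over 13736 genes. Fold changes on this scale understate the change of low genes. No count test was the main test, as the unit is FPKM. Fold changes were also fitted with limma-voom on recovered reads (mean of at least 10), with the factors of the FPKM as library sizes. The other alternatives were no filter, a minimum mean of 1 FPKM, a pseudocount of 0.1, median-of-ratios scaling, quantile normalization, no trend, a threshold of 0.1 on the adjusted p-value and each library left out. On simulated data for 13661 genes, limma called 99.5% of 200 genes with a seeded 4-fold change and 16 unchanged genes. limma-voom called 100% and 4 unchanged genes of 14316. Only genes that averaged more than 200 reads were seeded, and the simulated spread between libraries was a set value, not an estimate from these data. The rates therefore do not carry over to genes with fewer reads, smaller changes or a wider spread. Depth covers counting error only.

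Symbols were matched to the rule without regard to letter case. Members and gene lists were chosen with earlier results of these data known. Genes were named if they were DEGs in either fit, had a limma adjusted p-value under 0.1, were among the 2 highest of their role at 0.5 FPKM or more, or had the largest rise or fall without overlap in their family. The remaining names were picked with the values in view. Of the members, 24 share exon bases with another gene, which the unstranded kit cannot separate.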

Additional observations from a re-analysis of the deposited data

How the results depend on the processing

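No paired analysis was possible because replicate 3 is the only number found in control and in SUV-OE. The calls depend on the spread that 2 libraries per group give. All genes gave 168 DEGs, and limma-voom on reads gave 667, an adjusted p-value under 0.1 gave 342 and no filter gave 0, though 4177 genes, 15 of them members, then had an unadjusted p under 0.05. The members gave 3, and 9, 6 and 0 under these settings. Leaving out 1 library gave 0 to 0 DEGs among all genes and among members, with 1166 to 3877 genes and 7 to 9 members at an unadjusted limma p under 0.05. The remaining lone library of a group is assumed to vary like the others. The limma adjusted p-value was then 0.123 to 0.291 for Itga6, 0.124 to 0.331 for Itgb3, 0.115 to 0.282 for Col18a1 and 0.0975 to 0.186 for Suv39h1. The members' median of 0.06 became 0.30 with limma-voom, which adds 23 low members, and was 0.08 over the 24 members tested on FPKM. The count of members with both SUV-OE libraries above control was 10, and was 20 among those tested on reads and 27 without a filter, which admit more genes. Quantile normalization, median-of-ratios scaling, no trend, a mean FPKM of at least 1 and a pseudocount of 0.1 left Itga6, Itgb3 and Col18a1 as DEGs. Signs turned for Itgb2 (0.090) and Lamb3 (-0.070) with quantile normalization. Leaving out 1 library also turned signs, with log2 fold changes from -0.029 to 0.14 for Col11a2, -0.31 to 0.059 for Col6a3, -0.061 to 0.030 for Col7a1, -0.13 to 0.17 for Itgb1, -0.33 to 0.037 for Itgb5 and -0.015 to 0.13 for Lamb3. None of these genes was a DEG, and the cause was not tested.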
